A study of Mus musculus with 170 samples.

Results

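The 7 haemoglobin chain genes Hba-x, Hba-a1, Hba-a2, Hbb-bh1, Hbb-y, Hbb-bt and Hbb-bs were followed together with Alas2 and Car2, 2 genes of the red cell, through single cells of the mouse embryonic heart. They were taken as a group by name, and all 9 were rows of the expression table, which held 40549 rows. The values are TPM, a length-normalised transcript abundance scaled to a fixed total within each cell, and levels are given as TPM or as log2(TPM + 1). Cells in which the mean log2(TPM + 1) of Hba-x, Hbb-y and Hbb-bh1 was at least 8 were set apart, and 5 of 143 cells met this rule. They are called globin-high cells below.

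The cells came from the ventricles of C57BL/6 embryos at embryonic day 9.5 and were picked by hand with a mouth pipette before Smart-seq2 amplification, a full-length poly(A)-primed protocol. The control group held 74 cells, labelled wild type, from embryos that by the study's methods carried 2 floxed Dgcr8 alleles and the ROSA26 mT/mG membrane reporter without Cre. The conditional knockout (cKO) group held 69 cells, labelled Mesp1Cre/+; Dgcr8-/-, in which Cre from the Mesp1 locus, active in early cardiovascular mesoderm, removed Dgcr8, a microRNA processing gene, and the same reporter was carried. Each group was sequenced in 2 batches, with 35 control and 35 cKO cells in batch 1 and 39 control and 34 cKO cells in batch 2. The labels name no embryo, so each genotype is 1 sample, cells are not replicates, and every value below is a description of these cells with no test. SDs and ranges are the scatter across cells.

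Between 2063 and 14139 genes were detected per cell, which is the only trace of depth that TPM leaves. Dgcr8 itself was at 1 TPM or more in 16 of 35 control and 14 of 35 cKO cells of batch 1 and in 14 of 39 control and 7 of 34 cKO cells of batch 2, so its row did not separate the genotypes cell by cell. The authors had removed cKO cells with low GFP and high tdTomato reporter transcripts, and the part of this filter in the globin counts of that group was not tested. No column of the table repeated another.

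Haemoglobin is a tetramer of alpha-like and beta-like chains, each holding a haem group. The first red cells of the mouse embryo arise in the yolk sac, enter the circulation when the heart begins to beat, and keep their nuclei for days, so they carry abundant globin messenger RNA. They use the embryonic chains zeta (Hba-x), epsilon-y (Hbb-y) and beta-h1 (Hbb-bh1) together with the alpha chains (Hba-a1, Hba-a2), whereas the adult beta chains (Hbb-bs, Hbb-bt) dominate in red cells made later in the fetal liver. Alas2 is the erythroid form of the enzyme that starts haem synthesis, and its gene is X-linked. Car2 encodes a cytosolic carbonic anhydrase that is abundant in red cells but is also made in many other tissues.

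The alpha-like genes lie in the order Hba-x, Hba-a1, Hba-a2 on chromosome 11 (GRCm38, plus strand), at 32276400 to 32278116, 32283511 to 32284465 and 32296489 to 32297298. The beta-like genes lie on the minus strand of chromosome 7, with Hbb-y at 103851749 to 103853216, Hbb-bh1 at 103841637 to 103843164, Hbb-bs at 103826534 to 103828096 and Hbb-bt at 103812524 to 103813996. Alas2 is at 150547375 to 150570638 on chromosome X and Car2 at 14886273 to 14900770 on chromosome 3. How well the rows can be told apart depends on their sequences, so the first 60 coding bases are given below, from exon 1 of the GENCODE M21 transcripts, 5′ to 3′. Capitals mark bases that differ from Hba-a1 in Hba-x and from Hbb-bs in Hbb-y and Hbb-bh1.
Hba-a1: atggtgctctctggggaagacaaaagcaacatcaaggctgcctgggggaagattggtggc
Hba-x: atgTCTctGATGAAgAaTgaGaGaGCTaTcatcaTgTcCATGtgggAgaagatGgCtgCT
Hbb-bs: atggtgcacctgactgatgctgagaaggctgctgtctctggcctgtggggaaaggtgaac
Hbb-y: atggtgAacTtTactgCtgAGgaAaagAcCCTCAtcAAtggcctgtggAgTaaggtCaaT
Hbb-bh1: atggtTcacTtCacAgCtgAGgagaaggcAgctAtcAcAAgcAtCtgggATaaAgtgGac

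Over these 60 bases Hba-x differed from Hba-a1 at 28 positions, Hbb-y from Hbb-bs at 19 and Hbb-bh1 from Hbb-bs at 18. Hba-a2 matched Hba-a1 and Hbb-bt matched Hbb-bs at every one of them. Over the whole coding sequence Hba-a1 and Hba-a2 were 99.8% identical with 1 mismatch, and Hbb-bt and Hbb-bs were also 99.8% identical with 1 mismatch. Of all stretches of 31 bases in the Hba-a2 transcript, 91.0% also occurred in Hba-a1, and of those in Hbb-bs, 66.9% also occurred in Hbb-bt. The division of reads within each of these pairs is therefore uncertain, and Hba-a1 and Hba-a2 are summed where a result turns on it. Hbb-y and Hbb-bh1 were 76.4% identical and shared no stretch of 31 bases, and Hba-x was 61.7% identical to Hba-a1, so the 3 embryonic rows are distinct from each other and from the adult ones.

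One alpha and one embryonic beta-like promoter, 120 bases upstream of the RefSeq start on GRCm38.p6, are shown because both genes were high in the same cells. Capitals mark the letters of the CCAAT box, the CACCC box read by Klf1, the word GATAA read by GATA factors, and the word ATAAA found in part of TATA boxes, searched on both strands.
Hba-a2, chr11:32296372-32296491, plus strand: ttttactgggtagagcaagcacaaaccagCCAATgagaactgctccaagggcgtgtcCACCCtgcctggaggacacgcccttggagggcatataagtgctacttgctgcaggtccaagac
Hbb-y, chr7:103853208-103853327, minus strand: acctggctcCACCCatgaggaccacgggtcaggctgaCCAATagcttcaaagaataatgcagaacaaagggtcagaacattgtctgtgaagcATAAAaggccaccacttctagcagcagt

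Promoter sequences were matched for 7 of the 9 genes, all but Hbb-bh1 and Car2. CACCC was found in 7 of 7 windows against 31.7% of 32851 promoter windows of this length, and CCAAT in 5 of 7 against 21.3%. ATAAA was found in 4 of 7 against 20.2%, and GATAA, in Hba-x and Alas2 alone, in 2 of 7 against 10.5%. In Alas2 the ATAAA and GATAA matches overlapped on the reverse strand, at -87 and -86 from the start. The ATAAA matches of Hba-x, Hbb-y and Hbb-bt lay at -27 or -28. The windows of Hba-a1, Hba-a2 and Hbb-bs hold tataag, which the word ATAAA misses, so 4 of 7 is not a count of TATA boxes. The windows of Hba-a1 and Hba-a2 are the same sequence shifted by a few bases, and those of Hbb-bt and Hbb-bs are alike in part. The 7 windows are therefore not 7 separate cases to set against the share over all promoters. Such matches describe letters and not binding.

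All 5 globin-high cells were control cells, and all 5 were in batch 2. They made up 5 of 74 control cells, or 6.76% (exact Clopper-Pearson 95% interval 2.23 to 15.1, which covers counting error only), and 5 of 39 control cells of batch 2, or 12.8% (4.30 to 27.4). None of 69 cKO cells met the rule, which allows a share of up to 4.35%, and none of 34 cKO cells in batch 2 did, which allows up to 8.82%. The interval of the control cells and the limit of the cKO cells overlap. The mean log2 score of the 3 embryonic chains was 16.95 in control cell W11-6, 15.74 in W8-8, 14.43 in W8-5, 13.26 in W8-6 and 11.59 in W8-7, and the nearest cells outside were cKO cell C2-7 at 7.17 and control cell W9-8 at 5.51. No cell lay between 7.17 and 11.59, and clustering on marker genes grouped the same 5 cells, although it read the same transcripts as the rule. Of the 5 cells, 4 shared the first number of their titles, 8, and the labels do not say what that number stands for.

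Haemoglobin transcripts took very different shares of these cells. The 7 globin rows summed to 53.8% of all TPM in W11-6, 24.4% in W8-8, 9.53% in W8-5, 4.199% in W8-6 and 1.32% in W8-7. The range was 40.6-fold. Detected genes stood at 6729 in W11-6, 3949 in W8-8, 8579 in W8-5, 9776 in W8-6 and 9142 in W8-7.

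Of the embryonic chains, Hbb-y, the epsilon-y chain, was the highest row in every globin-high cell, at 151654 TPM in W11-6, 77517 in W8-8, 31728 in W8-5, 13078 in W8-6 and 4327 in W8-7. Hbb-bh1, the beta-h1 chain, followed at 135261, 55924, 21603, 9593 and 2860 TPM in the same order of cells. Hba-x, the zeta chain, held 99078, 37586, 15820, 7511 and 2352 TPM. Hbb-y exceeded Hbb-bh1, and Hbb-bh1 exceeded Hba-x, in 5 of 5 cells. These 3 rows chose the cells, so their height is not a finding.

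The adult-type alpha rows did not enter the rule. Hba-a1 stood at 72901 TPM in W11-6, 36332 in W8-8, 13065 in W8-5, 5240 in W8-6 and 2111 in W8-7. Hba-a2 stood at 78352, 35822, 12226, 6425 and 1485 TPM. Hba-a1 was the higher of the pair in 3 of 5 cells, so the near-identical copies had no fixed order. Both lay above every one of the 138 other cells, in which the highest Hba-a1 value was 119 TPM and the highest Hba-a2 value 728 TPM. The mean log2(TPM + 1) of Hba-a1 was 13.68 ± 2.06 (SD across 5 cells) against 1.44 ± 2.07 in the other 138 cells, a difference of 12.24.

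**Figure D1:**
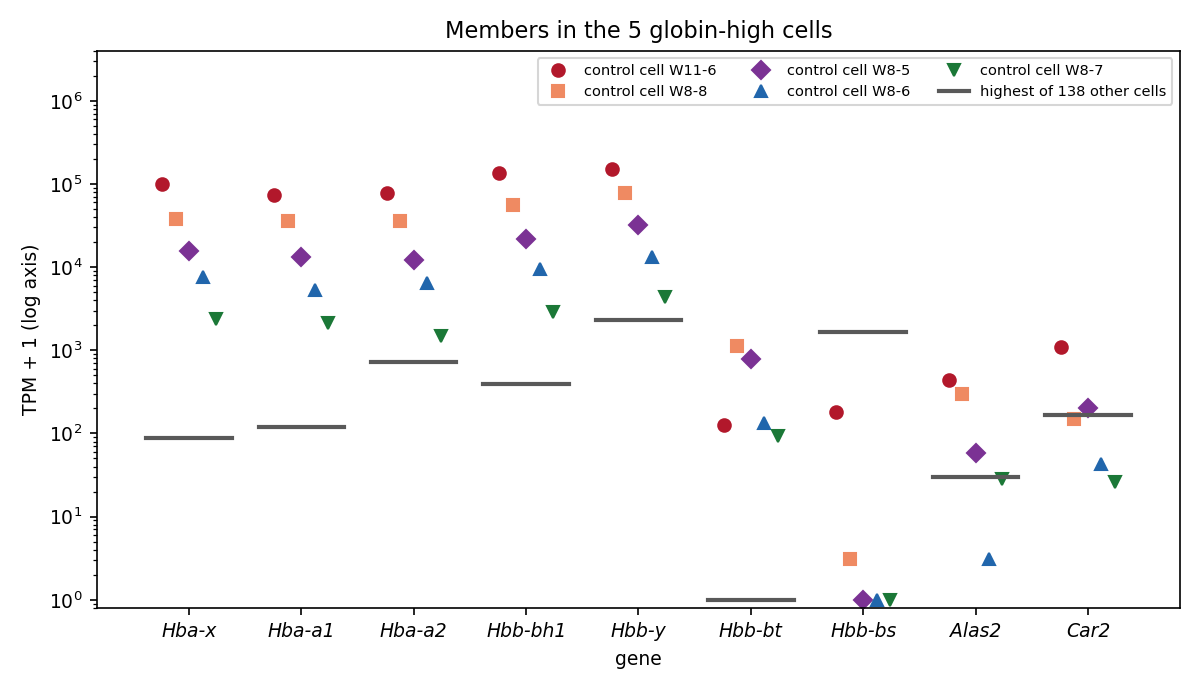
TPM + 1 of the 9 genes on a log axis in each of the 5 globin-high control cells (symbols), with the highest value among the 138 other cells as a grey line. Of the globin rows, 5 fall in the same order of cells from W11-6 to W8-7 and lie above every other cell, Hbb-bt is above other cells but in another order, and Hbb-bs is at 0 in 3 of the 5.

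The adult beta chains were minor, and they differed from each other. Hbb-bt reached 1118 TPM in W8-8 and 794 in W8-5, and stood at 132 in W8-6, 127 in W11-6 and 91.5 in W8-7. It was therefore not highest in the cell with the most globin. It was at 0 in all 138 other cells. Hbb-bs was at 180 TPM in W11-6, 2.10 in W8-8 and 0 in W8-5, W8-6 and W8-7, while among the other cells it reached 1653 TPM. Hbb-bt and Hbb-bs together made up 0.107% of the beta-like TPM in W11-6 and at most 1.47% in any globin-high cell. The split between them rests on the part of each transcript that the other lacks.

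The composition of the globin pool hardly moved while its size changed 40.6-fold. Hba-x took 15.4% to 18.4% of globin TPM in the 5 cells (mean 17.2 ± 1.22), Hba-a1 and Hba-a2 together 26.6% to 29.5% (27.8 ± 1.12), Hbb-bh1 21.6% to 25.2% (23.04 ± 1.29) and Hbb-y 28.2% to 33.3% (31.4 ± 1.98). The 3 embryonic chains made up 70.01% to 72.6%. Alpha-like over beta-like TPM lay between 0.76 and 0.87, so the alpha-like transcripts were the fewer in every cell.

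Within each family the balance was also narrow, and the lowest value came from a different cell in each. Zeta made up 39.6% of alpha-like TPM in W11-6, 39.2% in W8-6, 39.5% in W8-7, 38.5% in W8-5 and 34.2% in W8-8. Epsilon-y made up 52.9% of epsilon-y plus beta-h1 in W11-6, 58.1% in W8-8, 59.5% in W8-5, 57.7% in W8-6 and 60.2% in W8-7. W11-6, the cell with most globin, thus had the lowest epsilon-y share and W8-8 the lowest zeta share.

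Alas2, which starts haem synthesis in red cells, stood at 444 TPM in W11-6, 296 in W8-8, 57.2 in W8-5, 2.05 in W8-6 and 26.98 in W8-7. It was at 1 TPM or more in 4 of the 138 other cells, with a highest value of 28.9 TPM, so W8-6 and W8-7 lay within the range of the other cells. Car2 stood at 1095 TPM in W11-6, 150 in W8-8, 203 in W8-5, 41.6 in W8-6 and 24.9 in W8-7. It reached 165 TPM elsewhere, so W11-6 and W8-5 alone exceeded all other cells. For each 1000 TPM of globin there were 0.827 TPM of Alas2 in W11-6 and 2.04 in W8-7, but 0.0489 in W8-6. The corresponding Car2 values ran from 0.615 in W8-8 to 2.13 in W8-5. Differences from the other cells were 5.75 for Alas2 and 6.25 for Car2 in mean log2(TPM + 1), and 6.10 and 6.60 when TPM was rescaled without the globin rows.

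The 5 cells were checked against markers of other cell types, and only W11-6 was low on all of those lists. Each list is given as its mean log2(TPM + 1). Over 15 cardiomyocyte markers W11-6 stood at 1.49, while W8-6 at 9.91 and W8-7 at 10.41 were close to the median of 10.22 in 98 other cardiomyocyte-like cells, with all 15 markers at 1 TPM or more in both. W8-8 stood at 6.25 and W8-5 at 4.82, below the lowest of those 98 cells at 6.70. Over 6 epicardial markers W8-5 reached 6.36, within the range of 5.00 to 8.20 of 14 epicardial-like cells, and 5 of its 6 markers, Wt1, Tbx18, Tcf21, Upk3b and Upk1b, were at 10 TPM or more. The other 4 cells were at 0 to 0.79. Over 13 endothelial markers W8-8 stood at 2.72 and the other 4 at 0.59 to 1.59, all below the 5.60 of the lowest of 20 endothelial-like cells. Over 14 mesenchymal markers W8-5 stood at 3.46 and the other 4 at 0.09 to 1.24. The 9 macrophage markers were at 0 in 4 of the 5 cells.

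**Figure D2:**
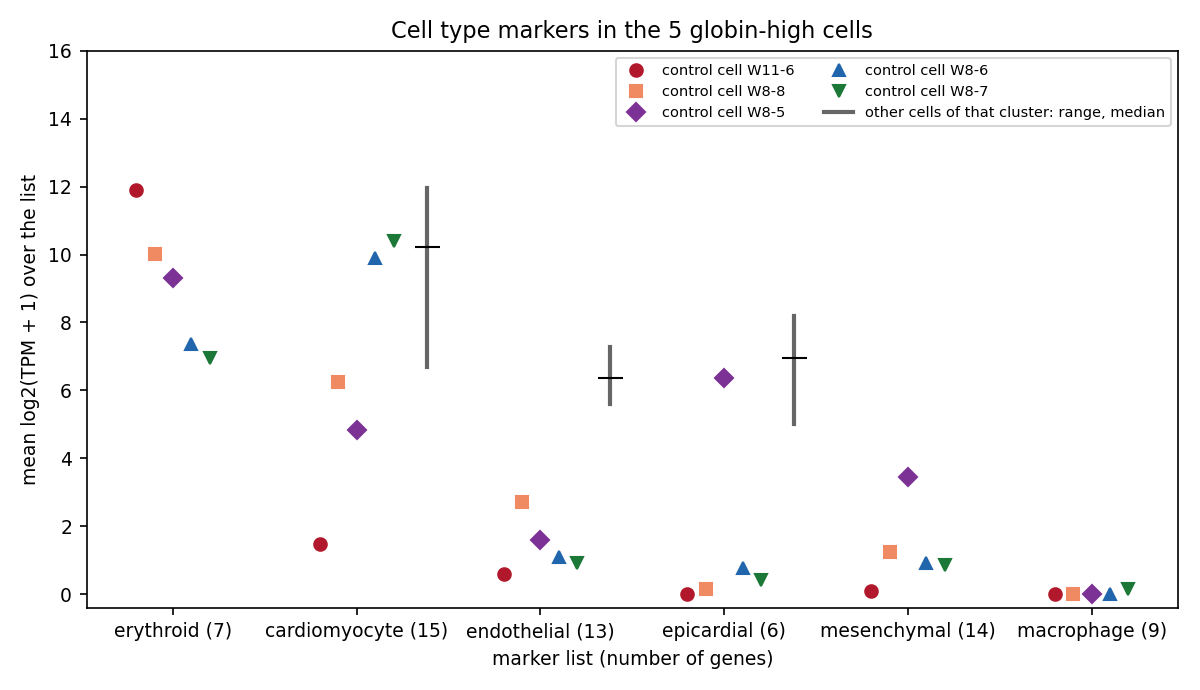
Mean log2(TPM + 1) over each marker list in the 5 globin-high cells (symbols), with the range and median of the other cells of the cluster that the list names (grey line and black tick). W8-6 and W8-7 lie at cardiomyocyte levels, W8-5 at the epicardial level, and W11-6 at 1.49 or less on every list but the erythroid one.

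Thus W8-6 and W8-7 held every cardiomyocyte marker and W8-5 held 5 of 6 epicardial markers beside the globins. Whether globin transcripts and heart markers came from 1 cell or from more than 1 in a well was not tested, and doublets could not be called from this table. For this reason the 5 cells are called by their rule and given no cell type name, and counts over gene lists are also given for W11-6 alone.

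Erythroid genes beyond the 9 members were read from 6 lists, of which 81 of 82 genes were in the table. Across the 5 globin-high cells against the 69 other control cells, 20 of 72 listed genes detected in 3 or more of these cells differed by at least 2 in mean log2(TPM + 1), against 1.16% of all genes so filtered. None differed by -2 or less, against 1.08%. Their median difference was 0.84, and that of all genes was -0.12. Erythroid genes present only in globin-high cells pass this filter through those cells alone, so the count is no support for the lists. In W11-6 by itself 44 of 69 genes lay at least 2 above the mean of the other control cells, against 5.78% of all genes. In the other 4 globin-high cells 12 of 69 did, against 1.96%. The lists include Alas2 and Car2, which are members.

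Transcription factors of the erythroid lineage were present in part. Gata1, a master regulator of red cell genes, stood at 176 TPM in W11-6, 49.1 in W8-5, 53.8 in W8-6, 19.5 in W8-7 and 0 in W8-8. Klf1, which binds CACCC boxes of globin promoters, stood at 171 TPM in W11-6, 187 in W8-8, 52.96 in W8-5 and 0 in W8-6 and W8-7. No cell but W11-6 and W8-5 held both. Of 15 regulators that passed the filter, 3 differed by at least 2, which were Gata1 (4.59), Klf1 (3.95) and Lyl1 (3.48), while Lmo2 was the lowest at -0.69. In W11-6 alone 6 of 15 did.

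Of the haem synthesis genes, 12 of 13 lay at least 2 above other control cells in W11-6, and 2 of 13 did in the mean of the other 4 globin-high cells. A single cell and a mean of 4 cells are unlike quantities, and the share over all genes was also higher for the single cell, as given above. Over all 5 cells 5 of 13 did, among them Alas2 at 5.80 and Slc25a37, the mitochondrial iron carrier mitoferrin, at 2.38. Ppox was lowest at -1.02, being at 69.6 TPM in W11-6 and at 0 in the other 4 cells. Of 8 iron supply genes, 2 were past the limit, Steap3 (3.34), a ferrireductase, and Slc11a2 (2.42), an iron transporter. The transferrin receptor Tfrc differed by 1.66 and Ireb2, an iron-sensing regulator, by -0.19.

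Of 16 membrane genes, 4 were past the limit, among them the actin-bundling protein gene Dmtn at 2.64 and the blood group gene Rhd at 2.34. Aqp1, a water channel, was lowest at -0.37. In W11-6 alone 12 of 15 were past it. Of 18 cytoplasmic genes, 6 were past it, with Car2 at 5.81, Ube2l6, a gene of the ubiquitin pathway, at 4.14, and Blvrb, biliverdin reductase B, at 4.12 as the first and Bnip3l, which clears mitochondria, at -1.58 as the last. Of 6 other globins, 2 passed the filter, and neither Ngb (0.07), neuroglobin, nor Mb (-1.43), the oxygen store of muscle, was past the limit.

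Genes whose pattern was most like the globins were ranked by Pearson's r of log2(TPM + 1) with the mean of the 3 embryonic chains over 143 cells, among 19746 genes at 1 TPM or more in 3 or more cells. Among the 10 leading ones were Hbb-bh0 (0.72), Gata1 (0.68), Klf1 (0.54), Slc4a1 (0.52), Hemgn (0.51), Phyhipl (0.50), Rhd (0.48), Adap2os (0.47) and Gm10052 (0.45). Hbb-bh0, annotated as an unprocessed pseudogene between Hbb-y and Hbb-bh1, was at 1 TPM or more in 4 of the 5 globin-high cells and 1 other cell. Its sequence was not compared with theirs. Gata1 was at that level in 4 of the 5 cells, Klf1 in 3 and each of the others named in 2, with 1 to 4 other cells. The points share libraries, and the 5 globin-high cells are the highest of the range. The same 3 chains chose those cells, and all named genes but Klf1 and Phyhipl pass the filter only with them. The ranking is therefore no support for a shared pattern. Among the 138 other cells the highest r was 0.33, for H2-Q6, and the next were E330020D12Rik, RP23-201C3.5, Sgsm1 and Rspo1, each between 0.31 and 0.32, so no erythroid gene led there.

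The members were then followed in the 138 other cells, 69 of each genotype. At least 1 globin row was at 1 TPM or more in 45 of 69 control and 45 of 69 cKO cells, or 65.2% of each (interval 52.8 to 76.3). Hbb-y was the most frequent, in 34 of 69 control and 27 of 69 cKO cells. Hba-x was found in 20 and 26, Hba-a1 in 23 and 28, Hba-a2 in 25 and 26, Hbb-bh1 in 18 and 20, and Hbb-bs in 3 and 8 of the control and cKO cells. Hbb-bt was in none of either, which allows up to 4.35% of cells in each group. Alas2 was in 1 control and 3 cKO cells.

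On the mean, summed globin TPM differed little between the genotypes outside the globin-high cells. The mean log2(summed TPM + 1) was 3.58 ± 3.30 in control and 3.92 ± 3.32 in cKO cells, a difference (cKO minus control) of 0.34, with 0.52 in batch 1 and 0.14 in batch 2. This was far within the scatter across cells. The size depended on the measure, being 1.44 by the median over cells and 0.04 as the log2 ratio of mean TPM + 1. In cells with mitochondrial TPM under 20% the difference of means was 0.66. In mean log2(TPM + 1) single globin rows differed by between -0.36 for Hbb-y and 0.47 for Hba-x. Hba-x was 1.13 higher in cKO cells of batch 1 and lower in those of batch 2, with a difference of -0.22 (control against cKO means 0.07 and 1.20, then 1.98 and 1.76), so the batches went opposite ways. All 69 cKO cells but 29 of 69 other control cells were cardiomyocyte-like, so genotype and cell type overlap in the pooled values. In cardiomyocyte-like cells alone the difference of summed globin was 0.02, made up of 0.09 in batch 1 (22 control and 35 cKO cells) and -0.56 in batch 2 (7 and 34 cells). In those batch 2 cells the rows of Hba-x (-1.11), Hba-a1 (-0.94), Hba-a2 (-0.95), Hbb-bh1 (-1.04) and Hbb-y (-0.75) were each lower in cKO cells, with 7 control cells on that side. As described below, globin in batch 2 followed numbers in the cell titles. Of the 34 cKO cells, 15 shared no number with a globin-high cell, at a median of 0 TPM of globin. The 7 control cells include W10-6, W10-8 and W11-8, which shared one, at 186, 143 and 173 TPM. The part of title number in these differences was not tested.

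Over all other cells pooled, Car2 had the widest gap of the 9 members between the genotypes, though not in batch 1 or in cardiomyocyte-like cells, where Hba-x differed more. It was at 1 TPM or more in 17 of 69 control cells, 24.6% (15.1 to 36.5), and 5 of 69 cKO cells, 7.25% (2.39 to 16.1). In batch 1 the counts were 9 of 35 and 4 of 35, and in batch 2 they were 8 of 34 and 1 of 34. Its mean log2(TPM + 1) was 1.22 ± 2.23 in control and 0.33 ± 1.17 in cKO cells. The difference was -0.88 over both batches, -0.76 within the first and -1.01 within the second. The 17 control cells comprised 5 that were cardiomyocyte-like, 5 endothelial-like, 5 epicardial-like and 2 of an unnamed cluster. Among cardiomyocyte-like cells Car2 was in 5 of 29 control and 5 of 69 cKO cells, and the difference was -0.36. The gap was therefore smaller within cardiomyocyte-like cells, and no gap exceeded the scatter across cells.

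Over the 6 erythroid lists 5 of 59 genes detected in more than 10 other cells were higher in cKO cells by at least 1 with the same sign in both batches, against 5.92% of all genes. Another 10 of 59 were lower, against 5.93%. Of the 9 members only Alas2 and Car2 are on these lists. Alas2 did not pass the filter, and Car2, at -0.88, was in neither count. The globin rows are not on the lists, and none that passed the same filter was past these limits. The higher ones included the haem enzyme gene Cpox (2.51), Tfrc (3.13), the actin cap gene Tmod1 (3.37), the glucose transporter gene Slc2a1 (2.60) and Bnip3l (2.01). Among the lower ones were Alad (-2.41), the second enzyme of haem synthesis, Gypc (-1.70), Gpx1 (-1.85), which removes peroxide, and Mb (-1.24), the myoglobin gene. No erythroid regulator was in either count, with Cbfa2t3 lowest at -0.91. Several of these genes, Tmod1, Slc2a1 and Bnip3l among them, are also made by heart muscle and are not specific to blood. In cardiomyocyte-like cells alone the lower count was 5 and the higher count 4. No share over all genes is given for those cells, so these counts have no baseline.

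**Figure D3:**
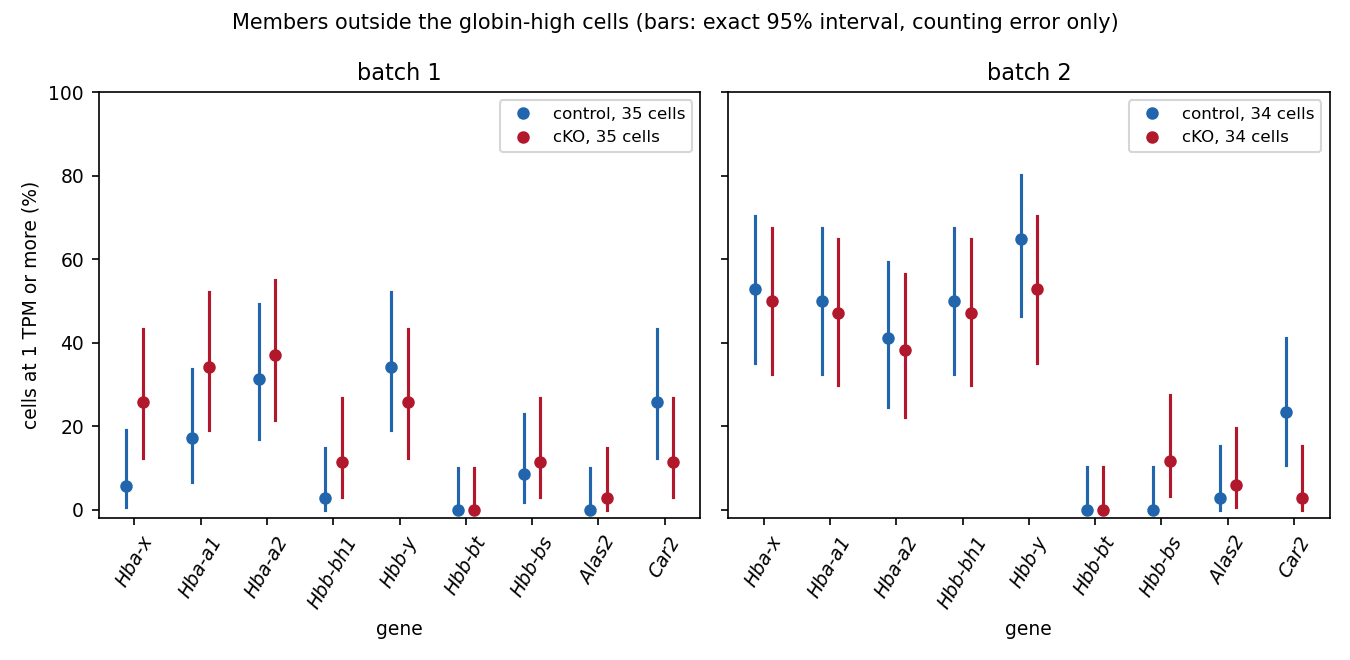
Percent of cells with each gene at 1 TPM or more among cells that are not globin-high, by batch and genotype, with exact 95% intervals for counting error. In batch 2 Hba-x, Hba-a1, Hbb-bh1 and Hbb-y are each in 47.1% to 64.7% of cells of both genotypes, and in batch 1 in 2.86% to 34.3%, while Hba-a2 is in 41.2% and 38.2% of control and cKO cells in batch 2 and in 31.4% and 37.1% in batch 1.

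How many globin transcripts a cell held differed between the batches, although the share of cells with at least 1 globin row did not separate them, at 65.7% of control and 68.6% of cKO cells in batch 1 and 64.7% and 61.8% in batch 2. All of Hba-x, Hba-a1 or Hba-a2, Hbb-bh1 and Hbb-y, counted as 4 transcripts, were at 1 TPM or more in 16 of 34 control and 13 of 34 cKO cells of batch 2, against 0 of 35 and 2 of 35 in batch 1. In batch 2 the rows also rose and fell together, with Pearson's r across 68 cells between 0.65 and 0.89 for the 6 pairs of these transcripts. Across the 70 cells of batch 1 the 6 values lay between -0.12 and 0.25. These are descriptions over cells that share libraries and a batch.

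Within batch 2 the globins followed the cell titles, which hold a first number of 7 to 12 and a second of 1 to 8. This grouping was chosen after the values were seen, and the labels do not say what the numbers mean. The 5 globin-high cells are W11-6, W8-5, W8-6, W8-7 and W8-8. Of the other batch 2 cells, 40 shared with 1 of these cells either the second number or, if control, the first number, and 29 of the 40 held all 4 transcripts. Of the 28 cells that shared neither, 0 held all 4, and 23 held none of the 4.

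The second numbers 6 and 8 stood out. Leaving aside control cells with the first number 8 or 11, 18 cells of batch 2 had 1 of these second numbers, and all 18, 7 control and 11 cKO, held all 4 transcripts. Their summed globin lay between 65.3 and 813 TPM with a median of 149, and the medians were 122 in control and 153 in cKO cells. No cell of this set was without globin, in either genotype. With the second number 5 or 7, 5 of 14 cells held all 4, with a median of 26.95 TPM. These 2 numbers differed. With the second number 5, 5 of 8 cells held all 4, at a median of 33.3 TPM. With the second number 7, which W8-7 carries, 0 of 6 cells did, at a median of 8.63 TPM. Of the 8 other control cells with the first number 8 or 11, 6 held all 4, at 36.9 to 267 TPM. The cKO cells with the first number 8 or 11 and a second number of 1 to 4 did not share a first number with a cell of their own genotype that was globin-high, and all 4 of them had 0 TPM of globin. In batch 1, where no cell was globin-high, 1 of 21 cells with the second number 6 or 8 held all 4.

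**Figure D4:**
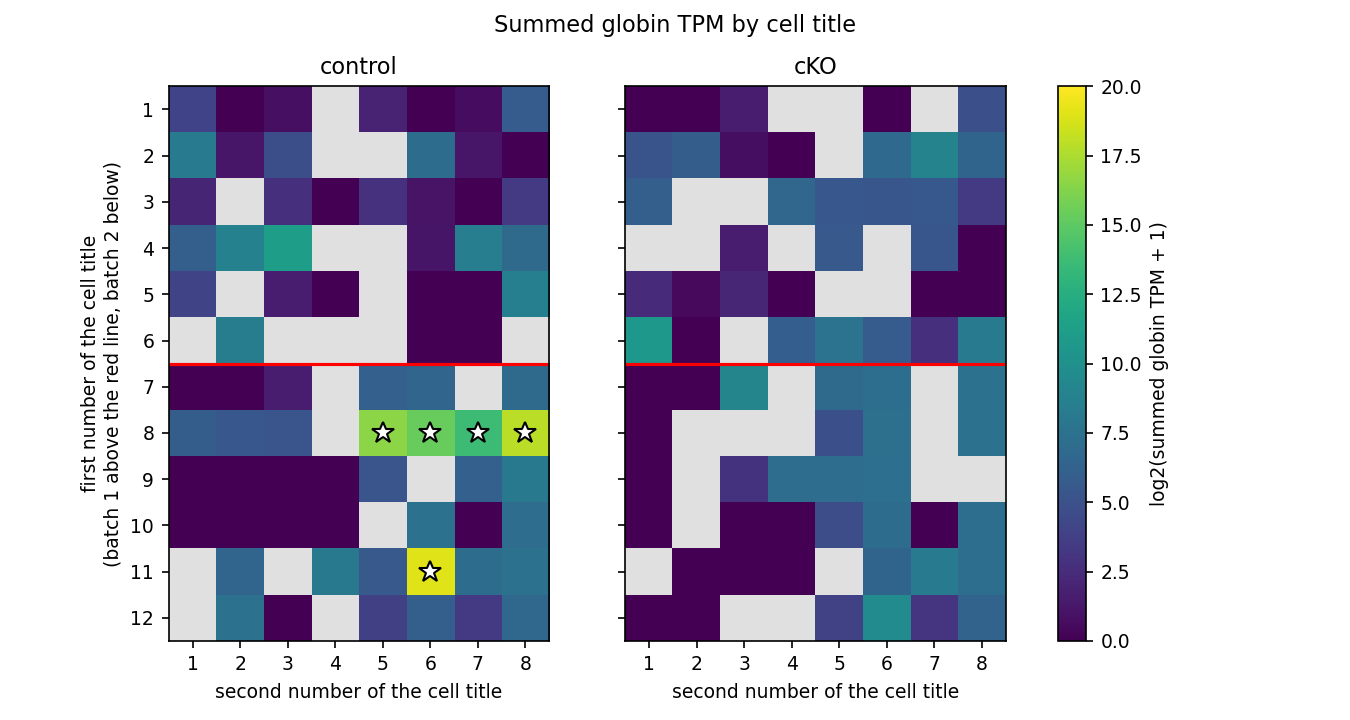
Log2(summed globin TPM + 1) of every cell placed by the 2 numbers of its title, control on the left and cKO on the right, with globin-high cells starred and grey where the table has no cell. Below the red line, in batch 2, columns 6 and 8 are filled in both genotypes, rows 8 and 11 are filled in control cells, and most squares in columns 1 to 4 are at 0.

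The globin in these 18 cells lay mainly in the same 5 rows, with median shares near those of the globin-high cells and a wider spread. Of these rows Hba-a2 was at 1 TPM or more in 16 of the 18 cells and the others in all 18, and Hbb-bs was so in 1. Hba-x had a median share of 15.6% of globin TPM, Hba-a1 15.7%, Hba-a2 15.5%, Hbb-bh1 19.9% and Hbb-y 29.3%, where the medians of the 5 globin-high cells were 17.8%, 13.7%, 14.6%, 22.9% and 31.7%. The single cells scattered widely about these medians, with Hba-x between 1.68% and 43.1%. Alpha-like TPM exceeded beta-like TPM in 8 of the 18 cells and in 0 of the 5 globin-high cells. With TPM summed over the cells of each set, Hba-a2 took 34.1% against 14.4% of globin and zeta 20.1% against 38.1% of alpha-like TPM. The levels were lower, at median levels of 19.4 TPM for Hba-x and 37.7 TPM for Hbb-y. Hbb-bt was at 0 in all 18. At the highest Hbb-bt share of a globin-high cell, 0.833%, a cell with 149 TPM of globin would hold 1.24 TPM, and at the lowest share, 0.0236%, it would hold 0.0351 TPM. These values lie around and below the 1 TPM used here to count a cell, but they hold for a cell at the median. Cells with more globin, up to 813 TPM in this set, would hold more Hbb-bt. Why the row was at 0 and not merely below 1 TPM was not tested. Alas2 was in 1 of the 18 and Car2 in 2.

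**Figure D5:**
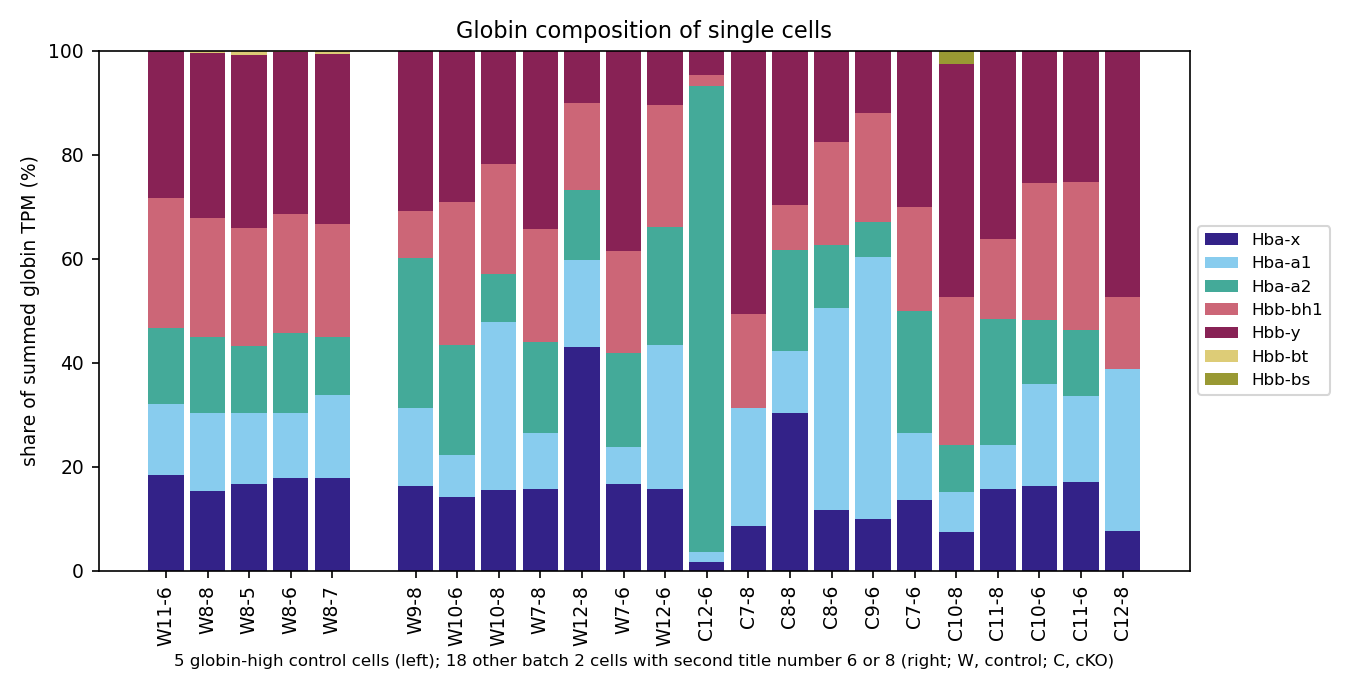
Share of each globin row in summed globin TPM, in percent, for the 5 globin-high control cells (left) and the 18 other batch 2 cells whose second title number is 6 or 8 (right). The left bars are nearly alike, and the right bars lie mainly in the same 5 rows with more scatter, C12-6 being mostly Hba-a2 at 89.6%.

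Other cells held a single globin row with little of the rest. Of 13 cells of batch 1 with 100 TPM or more of globin, 9 had over 90% of it in 1 row and 1 held all 4 transcripts. Of 23 such cells in batch 2, 5 had over 90% in 1 row and 18 held all 4. The highest was control cell W4-3 with 2323 TPM of Hbb-y out of 2325 TPM of globin, followed by cKO cell C6-1 with 1653 TPM of Hbb-bs out of 1660. The cKO cell C7-3 of batch 2 had 555 TPM of Hbb-y out of 558, and control cell W5-8 had 390 TPM of Hbb-bh1 and no other globin row. Mitochondrial transcripts took 53.97% of TPM in W4-3 and 59.5% in W5-8, and 18.6% and 12.96% in C6-1 and C7-3. Over all 14 cells with over 90% of globin in 1 row the share ran from 1.32% to 59.5%, and it was under 10% in 7 of them, among them W6-2 with 357 TPM of Hbb-y and 3.15%. Their part in the single-row values was not tested.

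The cKO cell nearest to the rule, C2-7 of batch 1, had another balance. Hbb-bh1 stood at 265 TPM, Hbb-y at 138 and Hba-x at 79.3, but Hba-a1 and Hba-a2 at 0.72 each. Its alpha rows were thus far lower beside the embryonic rows than in any globin-high cell. Alas2 and Car2 were at 0 in it. Of the 4 other cells with Alas2 at 1 TPM or more, cKO cell C12-5 had 28.9 TPM with 13.3 TPM of globin, and the others, W11-8, C12-6 and C3-7, had 3.93, 2.43 and 2.30 TPM.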

How the data were processed

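Single cells from the ventricles of hearts at embryonic day 9.5 were sequenced by the authors on HiSeq4000 after Smart-seq2 and Tn5 tagmentation. The deposited values are TPM per gene, which the authors made with Salmon on mm10 per the labels; the version, transcript set and handling of multi-mapping reads are not given in the sources used here. The columns summed to between 996133 and 999999, so depth is unknown, and reads carried no molecular identifiers. The authors had filtered cells on mapping rate and reporter transcripts. Of 170 labelled cells, 143 had a column and 27 were not analysed here.

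Columns were matched to cells by title. Values were analysed as log2(TPM + 1), pseudocount 1, with Python 3.11.15, pandas 2.3.3 and scipy 1.17.1. Calling a gene detected meant TPM above 0. Differences are of mean log2(TPM + 1), counted at 2 or more for globin-high cells (genes in 3 or more cells) and at 1 or more with the same sign in both batches for genotype (genes in more than 10 cells). Shares carry exact Clopper-Pearson 95% intervals, and a count of 0 allows 3 divided by the number of cells; both cover counting error only. Cells were clustered by Ward linkage on z-scored markers into 5 clusters. Named genes were the 9 members, the 3 highest and 1 lowest of each list, and the 10 (5 in other cells) most like the embryonic chains by Pearson's r; Hbb-bh2, Hbq1b and the single cells named for unusual values were chosen after their values were seen. Some genes that the rule names are not reported here. The members and lists were chosen with earlier results of these data known. Epb42, Epb41 and Adgre1 were read under older symbols, and Ahsp was not in the table. Promoters came from RefSeq (GRCm38.p6) and coding sequences from GENCODE M21 (GRCm38, which is mm10). The calculation of differences was checked on control cells with known shifts added, and this check covered no other step. Alternatives were other pseudocounts, thresholds, filters, means or medians, single batches, cardiomyocyte-like cells alone, TPM rescaled without globins, and each globin-high cell left out.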

Additional observations from a re-analysis of the deposited data

Results flagged for a closer look

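Among the 5 globin-high cells, 3 values stood apart. In W11-6 the Hbb-bs level of 180 TPM and the Car2 level of 1095 TPM lay further from the nearest of the 5 cells than Dixon's 95% critical value of 0.71 of the range allows. The zeta share of alpha-like TPM in W8-8, 34.2%, was low by the same measure. The usual rate of about 1 in 20 flagged by chance assumes independent and normally distributed values. Values from 5 cells chosen for their globin need not be so, and the 16 values examined are related to each other. The limit is therefore used only to pick values for a closer look, and 3 of the 16 were past it.

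Other globin rows outside the 9 members held signal in W11-6. Hbb-bh0, a pseudogene, was at 989.8 TPM there and at up to 118 TPM in the other globin-high cells. It is a short feature, annotated at 103850020 to 103850148 on chromosome 7, and its sequence was not compared with those of the members. Whether reads of Hbb-y or Hbb-bh1 entered the Hbb-bh0 row was not tested. Hbq1b, a theta-globin gene, was at 97.6 TPM and Hbb-bh2, a beta-like gene, at 20.7 TPM, and both were at 0 in the other 4 globin-high cells and in the other 138 cells.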

How the results depend on the processing

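No paired analysis was possible because the labels do not say that cells with the same title numbers belong together, and no value here rests on a test. Of 101 values of single members, cKO minus control, under alternatives, 10 changed sign, in 5 members and none past 1, and none of the 213 other values did. These counts leave out the cardiomyocyte-like cells of batch 2, a split by batch and cell type together. There Hba-x was -1.11, Hbb-bh1 -1.04 and summed globin -0.56, against 0.47, 0.15 and 0.34 over all other cells, so summed globin did change sign in that split. The part of title number in that split was not tested. The count of 5 globin-high cells was 6 at a threshold of 6 and 5 at a threshold of 10 and with marker clusters. The median difference of the 9 members between globin-high and other cells, 12.19, which includes the 3 rows of the rule, became 9.77 with a pseudocount of 10 and 10.04 with a threshold of 6. Over the 6 members that the rule did not use, a set added after seeing the data, the median was 7.16, and 4.19 with a pseudocount of 10. With each globin-high cell left out the first median was 11.53 to 12.90, the second 6.87 to 7.64, and the embryonic share of globin was 71.5% to 72.1%. The count of 20 list genes past the limit became 34 at a difference of 1, 6 at a difference of 4, and 12 among genes at 1 TPM in more than 10 cells. With 1 cell left out it was 12 (without W11-6) to 23. The count of 10 list genes lower in cKO cells became 18 with a pseudocount of 0.1, 2 with a pseudocount of 10 and 5 in cardiomyocyte-like cells. Apart from the counts with and without W11-6 above, no share over all genes is given at these other settings. They therefore show only how the list counts moved. Added after seeing the data, W11-6 alone gave a median difference of 14.72 and 44 list genes, and summed globin, cKO minus control, was 0.58 in batch 2 cells sharing no number and 0.30 in those with second number 6 or 8. Of the other values, 236 moved by no more than the scatter across cells and 26 by more. With 1 sample a genotype and unknown depth, no difference between genotypes can be tested.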

Other observations

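Platelet markers were also read in the globin-high cells. Of 6 platelet and megakaryocyte markers, W8-6 held 3 at 10 TPM or more, with a mean log2(TPM + 1) of 2.19, and the other 4 cells stood between 0 and 0.53. Among batch 2 cells that were not globin-high, the genes most like the embryonic chains were Klhl42 (r = 0.47), Ftsj1, Mtr, Nfkbib and 4930565N06Rik across 68 cells and 13546 genes ranked, none of them on an erythroid list.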
